A study of Homo sapiens with 6 samples.

Results

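The extended major histocompatibility complex (MHC) of chromosome 6 was examined in maps of open chromatin from 3 B-cell acute lymphoblastic leukemia lines with and without knockdown of NSD2. Peaks of the 12 deposited lists were merged where they overlapped by at least 1 bp. A merged region belonged to the interval when its midpoint lay between 26 and 33.5 Mb of hg19 chromosome 6. Of 130872 merged regions in all, 457 met this rule and are called members here. They were split by position into a histone and extended class I subregion (26 to 29.6 Mb, 217 members), class I (29.6 to 31.5 Mb, 112 members), class III (31.5 to 32.3 Mb, 57 members) and class II (32.3 to 33.5 Mb, 71 members). The first member began at 26020487 and the last ended at 33422617. The nearest regions outside began at 25992620 and at 33501003.

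The MHC holds the genes by which cells show peptides to T cells. Class I molecules (such as HLA-B and HLA-C) present peptides made inside almost any nucleated cell, whereas class II molecules (HLA-DR, HLA-DQ, HLA-DP) present peptides from taken-up material and are typical of B cells and other antigen-presenting cells. Class III between them carries complement genes such as C2 and C4A and the cytokine genes LTA, TNF and LTB. The telomeric flank carries a large cluster of replication-dependent histone genes and the butyrophilin genes. In the RefSeq gene table of assembly GRCh38.p14, used here for gene order only, the histone genes H1-1 and H3C1 come first. They are followed by BTN3A2, BTN2A2 and BTN3A1, by HLA-F, HLA-G, HLA-E, HLA-C, HLA-B, MICA and MICB, by the class III genes, and by HLA-DRA, HLA-DRB1, HLA-DQA1 and HLA-DQB1. The peptide transporter genes TAP2 and TAP1, the immunoproteasome genes PSMB8 and PSMB9, the peptide-loading genes HLA-DMB and HLA-DMA, HLA-DPA1, HLA-DPB1 and TAPBP come last. No hg19 annotation or sequence was used, so members are given by position, no gene is assigned to any of them, and the names of the subregions rest on position alone.

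Open chromatin was measured by ATAC-seq, which uses a transposase that cuts into accessible DNA. The lines were RS4;11, SEM and RCH, the last taken as the RCH-ACV of the growth protocol. The KMT2A-AFF1 fusion is present in RS4;11 and SEM. Each line carried either a non-targeted control shRNA (NT) or the shRNA sh2 against NSD2, an enzyme that methylates histone H3 at lysine 36, which made 6 samples. Knockdown rests on 1 shRNA and could not be checked from peak positions. Each sample came with 2 peak lists, read as 2 libraries, and the labels do not say whether they came from separate cultures. Any spread between them may be technical, and NT and sh2 cannot be tested within a line, which has 1 sample of each.

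The lists held 41594 to 84794 peaks on the autosomes and X, of which 285 to 372 lay in the interval. After knockdown the total fell in RS4;11 and RCH and rose in SEM, without overlap between the libraries of the 2 shRNAs. RCH sh2 had the shortest lists and the lowest median fold enrichment, 5.42 and 5.32, against 6.08 to 7.10 in the other lists. Fold enrichment is the value the authors deposited with each peak, read as the signal over the local background of the same library. Folds are not normalized between lists. They are used here to describe a peak or to rank it within its own list as a percentile, where 100 stands for the strongest.

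Open regions were dense in the interval and shared between lists. Members numbered 60.9 per Mb, against 48.2 per Mb on the rest of chromosome 6 between its first and last region. Of the 457 members 175 (38.3%) had a peak in all 12 lists, against 16.5% of all regions and 14.1% on the rest of chromosome 6. The count depended on the definition, with 63 (13.8%, against 7.87% of all regions) for peaks above the median of pooled folds and 81 (17.7%, against 8.56%) where peaks had to cover 50% of the region. Only 56 members (12.3%) had a peak in 1 list alone, against 28.3% of all regions. Class III was the richest, with 71.3 members per Mb and 28 of its 57 members (49.1%) open in all 12 lists. The histone and extended class I subregion had 80 of 217 (36.9%), class I 42 of 112 (37.5%) and class II 25 of 71 (35.2%). Members were wide as well, with a median of 529 bp against 359 bp for all regions. Among regions open in all 12 lists the medians were alike, 833 bp in the interval and 837 bp overall. Regions are not replicates, and these counts were not tested.

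**Figure D1:**
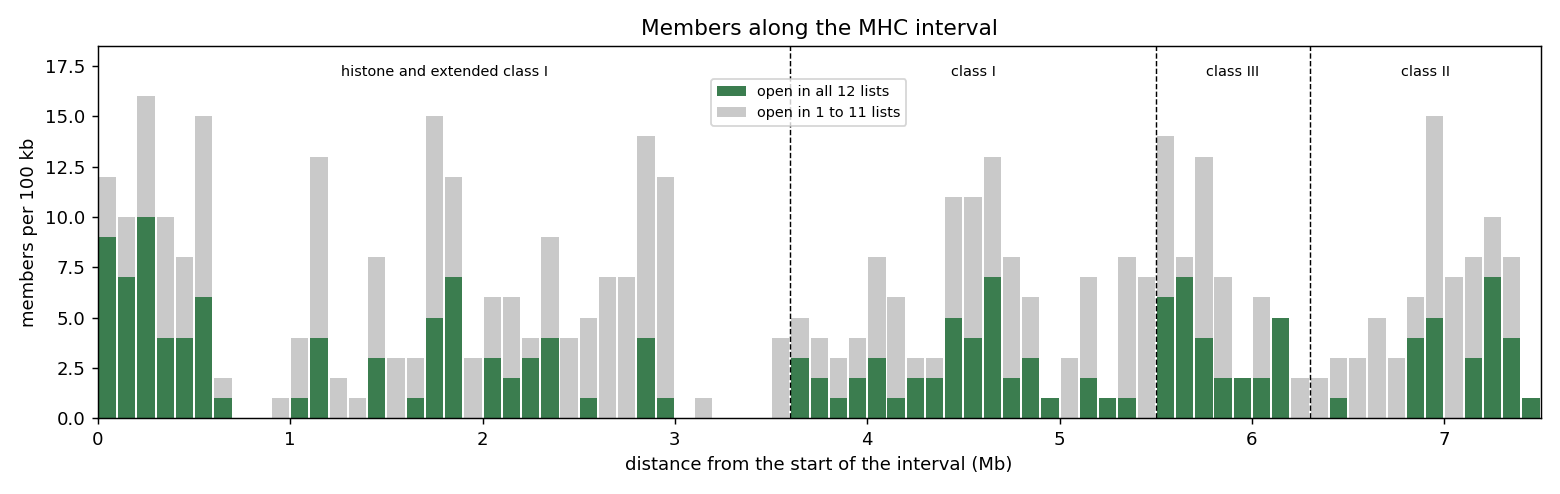
Number of members in each 100 kb window against the distance from the start of the interval in Mb, with members open in all 12 lists in green and the others in grey. Dashed lines part the 4 subregions. The fullest window holds 16 members and 6 windows hold none, all in the histone and extended class I subregion.

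Along the interval members came in clusters. The first 0.6 Mb held 71 members, of which 40 (56.3%) were open in all 12 lists. The next stretch, from 26.6 to 27.0 Mb, held 3. The fullest window of 100 kb lay from 26.2 to 26.3 Mb, with 16 members and 10 of them open everywhere. In class I the fullest window was 30.6 to 30.7 Mb (13 members, 7 open in all lists), in class III 31.5 to 31.6 Mb (14 and 6) and in class II 32.9 to 33.0 Mb (15 and 5). Of the 75 windows 6 held no member and 24 held none that was open in all 12 lists.

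The longest stretch without a member ran for 337 kb from 29183118 to 29520391, at the end of the extended class I subregion. It formed most of a stretch from 29.0 to 29.5 Mb that held a single member. The longest stretches elsewhere were 113 kb in class I (30923919 to 31036676), 73.7 kb in class III (31940520 to 32014249) and 136 kb in class II (32441488 to 32577605). The median distance between neighbouring members was 5.97, 9.69, 6.14 and 7.59 kb in the subregions from telomere to centromere. Some MHC segments are duplicated or differ in gene content between haplotypes, which can affect alignment, and none of the 12 lists held a peak on an alternative haplotype contig. Whether this sets the empty stretches was not tested.

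The strongest member of the whole interval lay in the histone and extended class I subregion at chr6:26659513-26660607. Its fold ran from 12.7 to 21.8 with a median of 17.1, and its percentile averaged 98.7 over the 12 lists. It was 1 of the 3 members between 26.6 and 27.0 Mb. The second of this subregion, chr6:26171977-26173194, had folds of 10.3 to 16.8 (median 13.1, mean percentile 91.7).

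In class I the leading members were chr6:30538889-30539650, with folds of 12.8 to 19.1 (median 14.5, mean percentile 95.9), and chr6:30034337-30035346, with 11.3 to 17.98 (median 12.8, mean percentile 93.6). In class III they were chr6:31926428-31927258, with folds of 10.3 to 18.3 (median 13.4), and chr6:31830380-31831050, with 8.47 to 15.7 (median 12.6). The class II leaders both lay at its centromeric end, at chr6:33421899-33422617, with folds of 8.60 to 18.3 (median 15.0), and at chr6:33290584-33291397, with 10.6 to 15.3 (median 13.1). All 8 of these leaders were chosen among members open in all 12 lists. The mean percentile of the class III and class II leaders was 93.7, 88.7, 94.2 and 92.3 in that order. In single lists their percentile went as low as 87.7, 80.6, 80.5 and 88.2. The leaders were picked by their mean percentile, so high values follow from the choice.

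The widest members were not the strongest. The widest member of the interval, 2344 bp at chr6:33265449-33267792 in class II, had a median fold of 7.24 and a mean percentile of 59.8. In the histone and extended class I subregion the widest was 2125 bp at chr6:26233269-26235393, with a median fold of 6.53 and a mean percentile of 49.9. The widest of class I, 1682 bp at chr6:30523619-30525300, had 7.89 and 63.6, and that of class III, 1569 bp at chr6:31632612-31634180, had 10.3 and 78.8. All of them were open in every list. Over all peaks in the interval the median percentile was 49.9 to 54.1 per list, so the peaks as a whole were of ordinary strength.

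The comparison of NT with sh2 asked how knockdown of NSD2 moved the number of open regions in the interval. The number hardly moved. In RS4;11 the NT libraries had 361 and 330 peaks in the interval and the sh2 libraries 340 and 340, or 345.5 ± 21.9 (SD, n = 2 libraries) and 340 ± 0. In SEM they had 361 and 372 with NT and 360 and 353 with sh2, or 366.5 ± 7.78 and 356.5 ± 4.95. In RCH they had 295 and 286 with NT and 285 and 286 with sh2, or 290.5 ± 6.36 and 285.5 ± 0.707. NT and sh2 libraries overlapped or touched in RS4;11 and RCH, and in SEM they lay 1 peak apart.

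**Figure D2:**
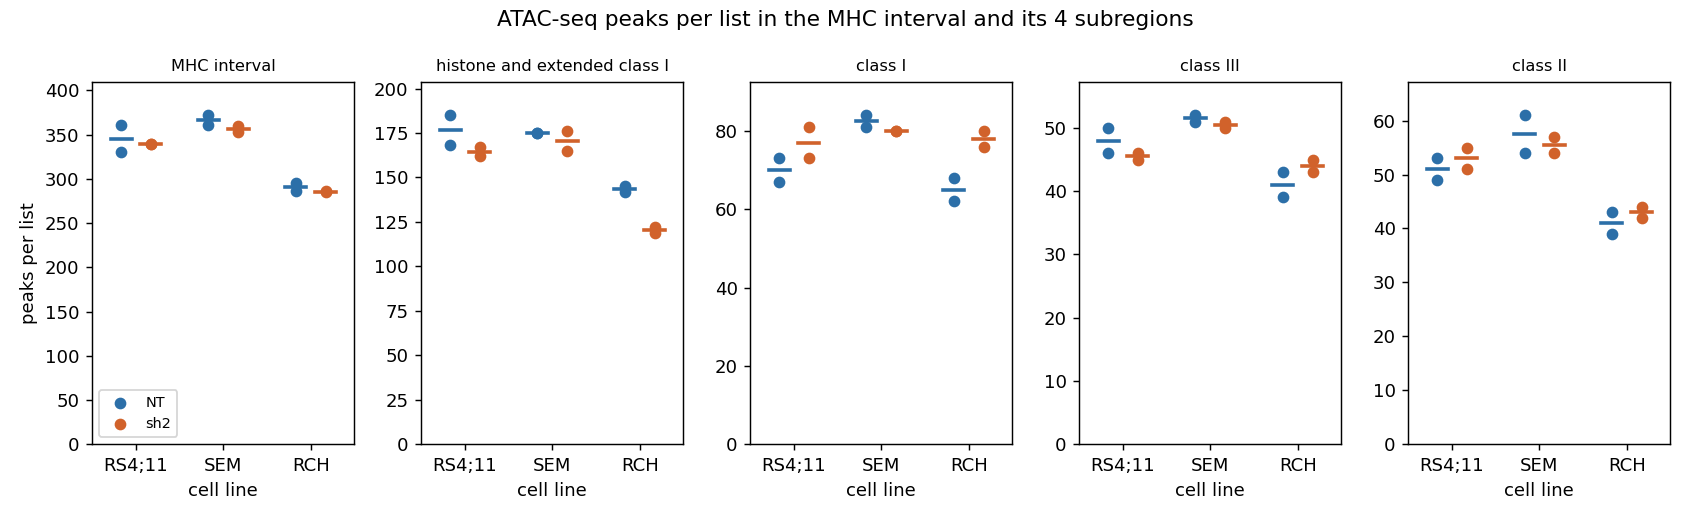
Peaks per list in the interval and in each of its 4 subregions, by cell line, with NT in blue and sh2 in orange. Each point is 1 library and each bar the mean of 2. NT and sh2 lie close together in the whole interval, while the sh2 libraries of RCH lie below NT in the histone and extended class I subregion (119 and 122 against 142 and 145) and above it in class I (76 and 80 against 62 and 68).

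The rest of the genome moved more. Peak number in the interval changed by -1.59% in RS4;11, -2.73% in SEM and -1.72% in RCH, while all other peaks changed by -21.5%, 16.2% and -24.6%. On the rest of chromosome 6 the changes were -24.4%, 22.2% and -33.2%. The interval therefore took a larger share of the peaks after knockdown in RS4;11, from 0.435% ± 0.013 to 0.544% ± 0.011 (SD, n = 2 libraries), and in RCH, from 0.512% ± 0.015 to 0.666% ± 0.031. It took a smaller one in SEM, from 0.673% ± 0.0035 to 0.564% ± 0.0044. These shares did not overlap between NT and sh2 in any of the lines.

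The log2 ratio of sh2 over NT in the interval was -0.02, -0.04 and -0.03 in RS4;11, SEM and RCH, which average to -0.03 ± 0.01 (SD over 3 lines). A two-sided sign-flip test, exact for the 3 lines, gave p = 0.25, the smallest it can reach. Minus the log2 ratio of all other peaks it was 0.33, -0.26 and 0.38, averaging 0.15 ± 0.35 (same exact test, p = 0.5). A common shift of the interval against the genome was thus not shown, since SEM moved the other way. When the lists of a line were cut to equal length by fold, the interval itself changed by 20.1%, -15.6% and 24.9%, and its difference from the other peaks was 0.27, -0.25 and 0.32. With peaks above the median of pooled folds the interval changed by 8.55%, -2.09% and -25.5%, so RCH turned from higher to lower between these settings, and the difference was 0.34, -0.31 and 0.32. The near-constant number thus belongs to the lists as deposited, while the difference from the other peaks kept its sign in each line under all 3 settings.

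**Figure D3:**
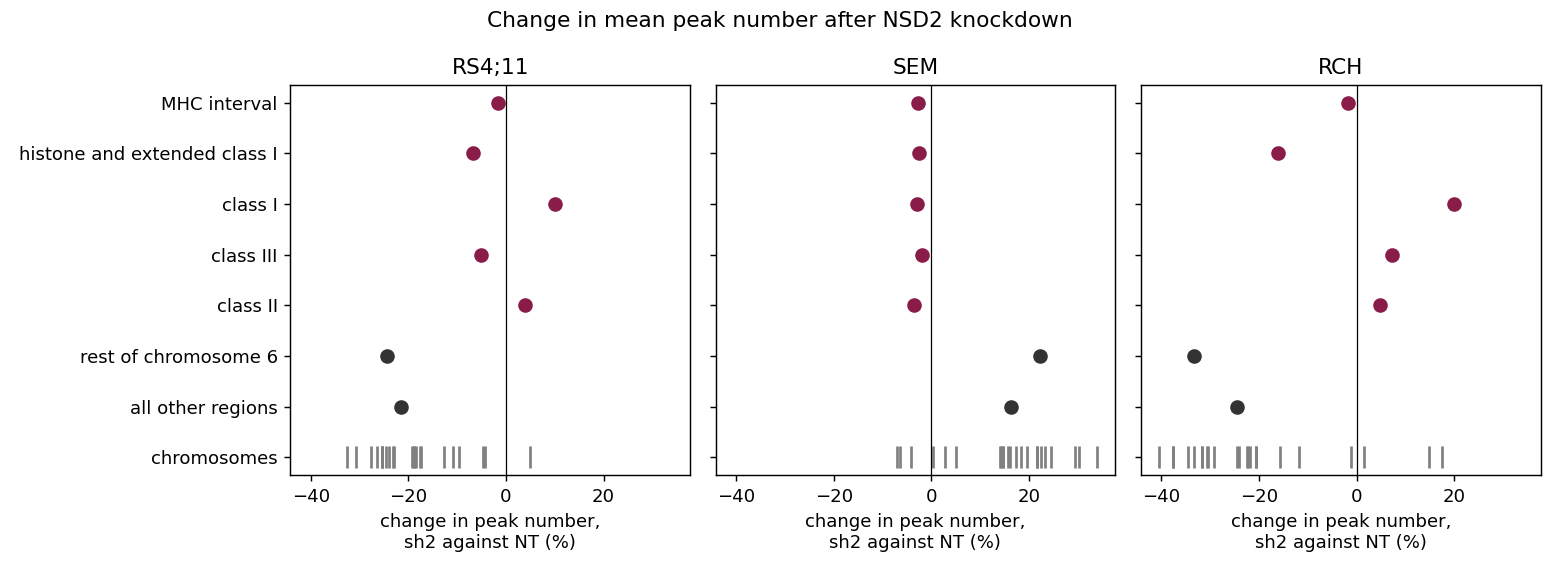
Change in the mean number of peaks after knockdown (sh2 against NT, %) in each line, for the interval and its subregions (red), the rest of chromosome 6 and all other regions (black), and the 23 chromosomes (grey ticks). The interval stands at -1.59%, -2.73% and -1.72% in RS4;11, SEM and RCH, away from all other regions at -21.5%, 16.2% and -24.6%.

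Such small changes were also found on some whole chromosomes. In RS4;11 the 23 chromosomes ran from -32.7% (chromosome 4) to 4.84% (chromosome 19), and chromosomes 17 and 22, at -4.29% and -4.61%, stood nearest to the interval. In SEM they ran from -7.01% (chromosome 22) to 34.0% (chromosome X), with chromosomes 19 (-4.19%) and 15 (0.408%) nearest. In RCH they ran from -40.5% (chromosome 4) to 17.6% (chromosome 19), with chromosomes 16 (-1.14%) and 17 (1.47%) nearest. In RS4;11 22 chromosomes had a lower value than the interval, in RCH 19 had, and in SEM 20 had a higher one. The interval thus lay within the range of whole chromosomes in every line, apart from the rest of its own chromosome.

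Within the interval the subregions of RCH went opposite ways. The histone and extended class I subregion went from 143.5 ± 2.12 peaks with NT to 120.5 ± 2.12 with sh2 (-16.0%), and class I from 65 ± 4.24 to 78 ± 2.83 (20%). The libraries of NT and sh2 overlapped in neither, nor did they on most whole chromosomes of RCH. All other peaks of RCH changed by -24.6%, so the histone and extended class I subregion fell less than they did. Class III (41 ± 2.83 and 44 ± 1.41) and class II (41 ± 2.83 and 43 ± 1.41) overlapped or touched. RCH is the line with the lowest folds after knockdown, and the part of that in these counts was not tested.

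In RS4;11 the histone and extended class I subregion also had fewer peaks with sh2, 162 and 167 against 185 and 168, a gap of 1 peak between the groups. Its class I libraries had 73 and 67 with NT and 81 and 73 with sh2, which touched. In SEM class I had 81 and 84 with NT and 80 and 80 with sh2, and the other subregions overlapped or touched. Class III and class II peak numbers did not separate NT from sh2 in any line.

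Members open under 1 shRNA alone were then counted. A region was NT-only in a line when a peak was present in each NT library and absent from each sh2 library, and sh2-only in the reverse case. In RS4;11 9 of the 357 members open in the line were NT-only (2.52%, exact 95% binomial interval 1.16 to 4.73), against 9.79% of all regions open in the line. In RCH 11 of 331 were NT-only (3.32%, 1.67 to 5.87), against 10.6%. In SEM, where sh2-only is the larger class of the genome, 4 of 385 were sh2-only (1.04%, 0.284 to 2.64), against 7.69%. In each line the class that was the larger one over the genome was thus rarer in the interval.

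**Figure D4:**
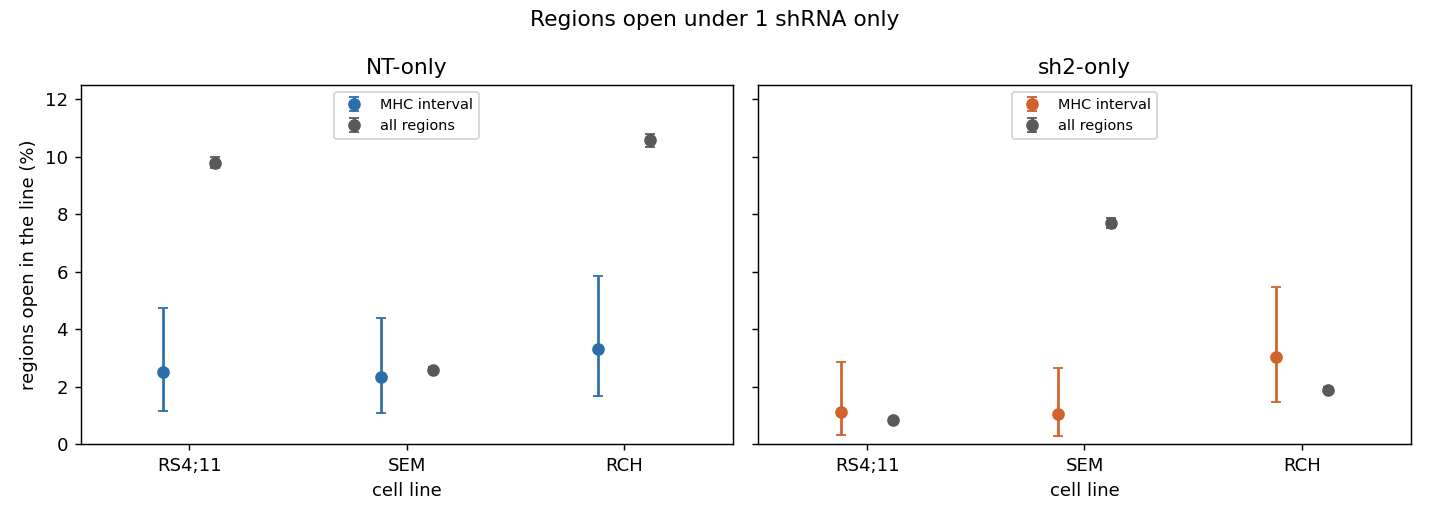
Share of the regions open in a line that were NT-only (left) or sh2-only (right), in the interval (coloured) and over all regions (grey), with exact 95% binomial intervals that cover counting error only. The interval lies below all regions for NT-only in RS4;11 (2.52% against 9.79%) and RCH (3.32% against 10.6%) and for sh2-only in SEM (1.04% against 7.69%).

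In the lists as deposited the other class lay nearer to the share of all regions. In RS4;11 4 members (1.12%) were sh2-only, against 0.854% of all regions, and in SEM 9 (2.34%) were NT-only, against 2.59%. In RCH 10 (3.02%, interval 1.46 to 5.49) were sh2-only, against 1.9%. With lists of equal length the NT-only share was 0.882% in RS4;11 and 1.99% in RCH, against 6.44% and 6.71% of all regions, and the sh2-only share was 0% in SEM (0 of 373 members), against 6.07%. The sh2-only share then became 5.00% in RS4;11 and 9.93% in RCH, above the 3.66% and 4.90% of all regions. In SEM the NT-only share became 5.63%, against 4.98%. With 50% coverage the sh2-only share was 3.53% in RS4;11 and 5.84% in RCH, against 1.06% and 2.63% of all regions. Above the median of pooled folds it was 3.73% and 3.33%, against 1.72% and 0.935%. Over 8 settings, library omissions included, it was above that of all regions in 7 and below in 1, in both lines. The NT-only share in SEM was above in 4 and below in 4.

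Leaving out a library loosens the rule and raised all 6 counts. Without NT library 2, RS4;11 had 28 NT-only members, and without sh2 library 2 it had 20 sh2-only members. Without sh2 library 1, SEM had 26 NT-only members, and without NT library 1 it had 13 sh2-only members. Without NT library 1, RCH had 35 NT-only members, and without sh2 library 1 it had 24 sh2-only members. Under each of the 4 omissions in a line, the share stayed below that of all regions for NT-only in RS4;11 (3.74% to 7.93% against 13.3% to 25.03%) and RCH (5.68% to 11.0% against 14.5% to 25.1%). The same held for sh2-only in SEM (2.39% to 3.43% against 12% to 17.2%). For the other class the ranges overlapped those of all regions. They were 2.27% to 5.75% against 1.68% to 4.27% for sh2-only in RS4;11, and 6.19% to 7.52% against 3.86% to 7.84% in RCH. NT-only in SEM had 3.68% to 6.90% against 4.58% to 7.70%.

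More members were open throughout a line than elsewhere. All 4 lists had a peak at 253 of the 357 members of RS4;11 (70.9%), against 48.5% of all regions, at 281 of 385 in SEM (73.0%), against 47.8%, and at 193 of 331 in RCH (58.3%), against 37.8%. The 2 libraries of a sample differed at 50 members in RS4;11 NT and 56 in sh2 (14.0% and 15.7% of those open in the line). They differed at 56 and 57 in SEM (14.5% and 14.8%), and at 72 and 59 in RCH (21.8% and 17.8%). NT and sh2 differed in the stricter sense above, which needs all 4 lists, at 13, 13 and 21 members (3.64%, 3.38% and 6.34%). Over all regions library differences also outnumbered changes. There they made up 27.5% and 18.2% of the regions open in RS4;11, 22.4% and 24.8% in SEM and 31.03% and 23.6% in RCH, with 10.6%, 10.3% and 12.48% changed. Libraries of the same sample thus also differed less often in the interval, in every sample. The part of this in the low shares of NT-only and sh2-only members was not tested.

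**Figure D5:**
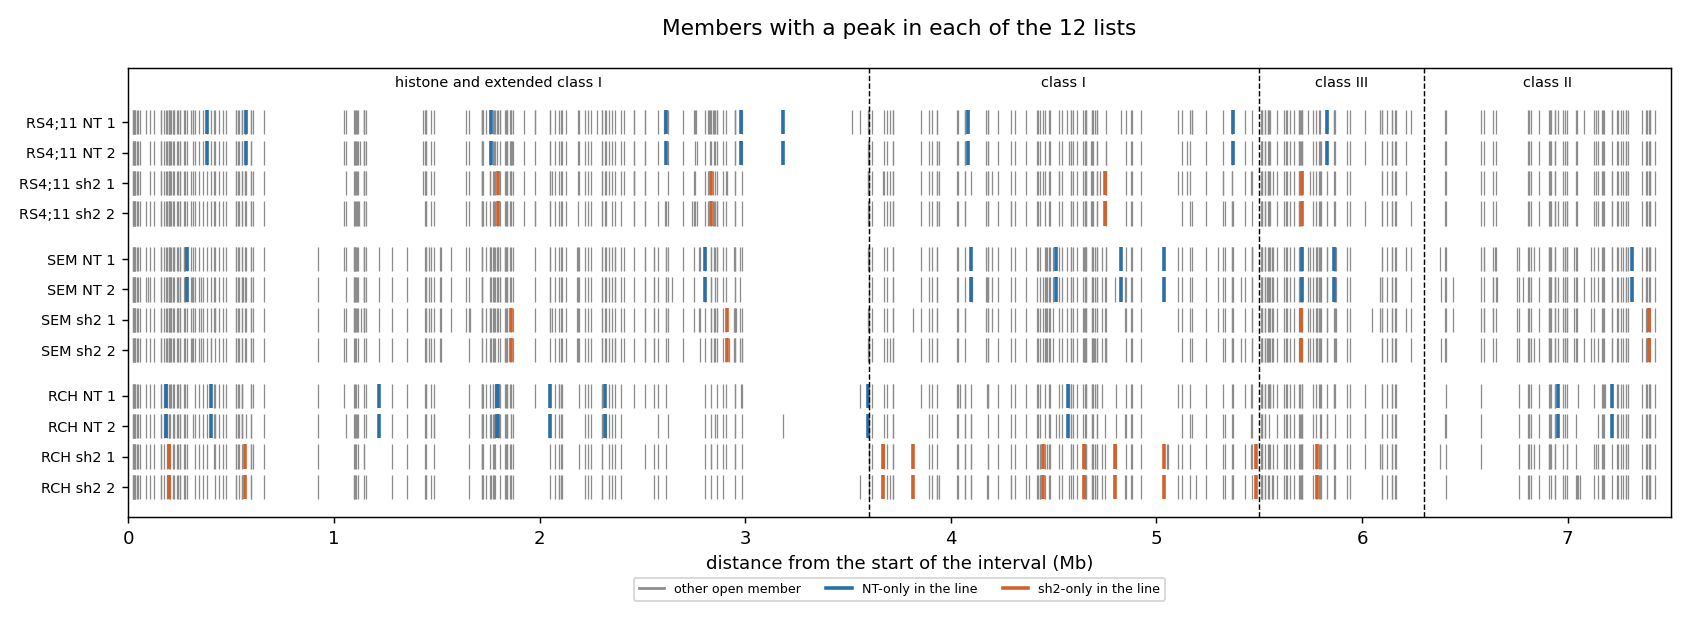
Each row is 1 of the 12 lists and each tick a member with a peak in it, placed by distance from the start of the interval in Mb. Members NT-only in a line are blue and those sh2-only orange. Of the 10 sh2-only members of RCH 7 lie in class I, and 8 of its 11 NT-only members lie in the histone and extended class I subregion.

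The changed members of RCH were split by subregion. In the histone and extended class I subregion 8 of 145 were NT-only (5.52%) and 2 sh2-only (1.38%), both below the 10.6% and 1.9% of all regions open in RCH. In class I 1 was NT-only and 7 were sh2-only (7.87% of the 89 open there, exact 95% binomial interval 3.22 to 15.5). Of these 4 shares only that of sh2-only in class I was above the share of all regions. With lists of equal length these counts were 4 and 8 in the former (3.10% and 6.20%) and 0 and 15 in the latter (0% and 17.9%). All regions then had 6.71% and 4.90%. The majority thus turned in the histone and extended class I subregion, where sh2-only lay near the share of all regions, and held in class I. With peaks above the median of pooled folds alone they were 12 and 0 (16% and 0%), and 3 and 4 (6.52% and 8.70%). All regions had 19.5% and 0.935%. Without sh2 library 1, class I had 5 NT-only and 14 sh2-only members (5.88% and 16.5%, against 16.7% and 7.01% of all regions). Without NT library 1 the histone and extended class I subregion had 24 and 4 (17.4% and 2.90%, against 25.1% and 3.86%).

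The 8 NT-only members there lay between 26183753 and 29596229, with folds of 3.46 to 9.54 in RCH NT. All 8 were open in all 4 lists of at least 1 other line, and 3 were open in all 8 lists of RS4;11 and SEM, as were 22.6% of all NT-only regions of RCH. The 7 sh2-only members of class I lay between 29670344 and 31484323, with folds of 3.92 to 5.77 in RCH sh2. For 6 of these another line had a peak in some list, and at none did another line have a peak in all 4 lists. Of all sh2-only regions of RCH 11.3% were open in all 8 other lists and 25.6% had no peak in another line. The 7 members are too few to set apart from them. For all regions the share open in all 4 lists of another line was not counted. No contrast between NT-only and sh2-only members is therefore read from it.

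The 2 highest-ranked NT-only members of RCH were of this kind. At chr6:28317536-28318208 the fold was 9.54 and 5.45 in RCH NT, with no peak after knockdown. RS4;11 had 10.3 and 8.96 with NT and 9.59 and 7.24 with sh2 there, and SEM had 7.53 and 7.34 with NT and 10.4 and 4.56 with sh2. At chr6:27218896-27219766 RCH NT had 7.01 and 6.04 and RCH sh2 no peak, SEM had 6.90, 7.07, 5.00 and 6.33 in its 4 lists, and RS4;11 had none. A peak was thus called in SEM under both shRNAs, in RCH with NT alone and in no RS4;11 list.

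The highest-ranked sh2-only member of RCH lay in class III at chr6:31782257-31782749, with folds of 5.16 and 6 in RCH sh2. SEM was open there in all lists (8.31 and 7.02 with NT, 8.10 and 7.36 with sh2) and RS4;11 had no peak. The second, in class I at chr6:30449817-30450166, had 5.77 and 4.87 in RCH sh2. RS4;11 had a peak there in 1 library of each shRNA (6.06 and 6.75), and SEM in NT library 2 (6.24) and both sh2 libraries (5.46 and 4.56).

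In RS4;11 the highest-ranked NT-only member, chr6:29182813-29183117, stood alone at the edge of the longest empty stretch. Its folds with NT were 8.49 and 10.3 in RS4;11. The only other list with a peak was RCH NT library 2 (6.21). The second, chr6:31370993-31371645 in class I, had 5.48 and 5.38 with NT and no sh2 peak, while SEM and RCH were open in all 8 lists with folds of 4.72 to 7.73. The 2 leading sh2-only members were weak, chr6:27799163-27799487 with 5.32 and 5.17 and chr6:31705747-31706097 with 3.94 and 5.15. In class II RS4;11 had no changed member among 49 in the lists as deposited, against 10.6% of all regions open in the line. The upper end of the exact interval is 7.25%. It covers counting error only and not the spread between samples.

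In SEM the highest-ranked NT-only member, chr6:31036677-31036985, marks the end of the longest empty stretch of class I. It had folds of 8.51 and 6.24 in SEM NT and no peak in SEM sh2, 5.35 and 5.04 in RCH sh2 and no peak in RCH NT, and none in RS4;11. It was the 1 member that changed in opposite directions in a pair of lines, as did 0.611% of all regions. The second, chr6:30098818-30099204, had 6.11 and 7.14 in SEM NT, 1 peak in RS4;11 sh2 (5.68) and peaks in RCH NT library 2 (5.20) and both RCH sh2 libraries (5.16 and 4.65). The sh2-only members of SEM were low in their lists, with mean percentiles of 12.02 or less over the SEM sh2 libraries. The leading ones were chr6:28911364-28911671 with 2.90 and 4.86 and chr6:33395656-33395928 with 3.36 and 2.96.

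In all 46 of the 457 members changed in at least 1 line, against 19.3% of all regions. As NT-only in at least 2 lines 0 members were found, and as sh2-only likewise 0, against 1.08% and 0.0902% of all regions. Shares this small allow few members in a set of 457, and nothing is read from the 0. Most changed members ranked low in their lists. The median of their mean percentile was 25.6 for NT-only and 14.6 for sh2-only members in RS4;11, 22.1 and 1.57 in SEM, and 40.1 and 39.2 in RCH. Members open in all 4 lists of a line had medians of 56.5 to 64.9. Over all regions the medians were low as well, 31.6 and 20.8 in RS4;11, 26.9 and 33.7 in SEM and 36.7 and 30.03 in RCH.

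Lists were also compared as sets of members, by the Jaccard index, here the number of members open in both of a pair of lists over the number open in either. In SEM it averaged 0.844 between libraries of a sample and 0.839 between NT and sh2, and in RS4;11 0.838 and 0.823. In RCH it was 0.774 and 0.732. Over all regions the same averages were 0.714 and 0.639 in SEM, 0.723 and 0.639 in RS4;11 and 0.645 and 0.545 in RCH. In the interval single NT to sh2 pairs reached 0.867 in SEM, above both pairs of libraries of a sample (0.840 and 0.848). RS4;11 pairs of NT and sh2 ran from 0.807 to 0.844, beside 0.828 and 0.848 within samples, so NT and sh2 lists there were about as alike as 2 libraries of a sample.

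Differences between lines were larger than those between shRNAs. Lists of different lines averaged 0.681 in the interval, against 0.798 for NT and sh2 of a line, and 0.481 and 0.608 over all regions. RS4;11 lists averaged 0.712 with those of SEM and 0.673 with those of RCH, and SEM lists 0.657 with those of RCH. SEM had the most open members, 337 and 343 with NT and 337 and 320 with sh2, although RS4;11 NT had the longest lists and 316 and 290 open members. RCH had the fewest, 260 and 258 with NT and 256 and 253 with sh2.

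Class II differed between the lines in its telomeric part. From 32.3 to 33.1 Mb, a stretch chosen after its values were seen, SEM lists were open at 30 to 36 of 44 members, RS4;11 lists at 22 or 23 and RCH lists at 17 to 19. These ranges did not overlap, and neither did those of the whole interval, where SEM lists were open at 320 to 343 members, RS4;11 lists at 290 to 316 and RCH lists at 253 to 260. Outside the interval SEM lists were open at 39.1% to 46.7% of regions, RS4;11 lists at 44.3% to 62.2% and RCH lists at 29.7% to 41.02%. From 33.1 to 33.5 Mb they were open at 21 to 23, 21 to 23 and 20 or 21 of 27 members. Of the 27 members there 15 were open in all 12 lists (55.6%), against 10 of 44 (22.7%) in the telomeric part. NT and sh2 lists did not separate in either stretch in any of the lines.

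Within it lies 32.5 to 32.8 Mb, also chosen after its values were seen, where 0 of 11 members were open in all 12 lists. SEM lists were open at 6 to 9 of them, RS4;11 lists at 4 and RCH lists at 1 or 2. The haplotypes of the lines are not given. Whether they affect alignment here or in the wider telomeric part was not tested. At 3 members RS4;11 and SEM were open in all 8 lists and RCH in none. At chr6:32590258-32591189 the folds were 9.70, 8.96, 7.10 and 9.73 in RS4;11 (NT, then sh2) and 5.30, 6.16, 6.48 and 4.79 in SEM. At chr6:32634154-32634701 they were 9.40, 4.31, 6.04 and 6.55 in RS4;11 and 8.90, 7.61, 5.07 and 7.01 in SEM. At chr6:32653394-32653821 they were 4.24, 6.30, 7.81 and 6.55 and 8.81, 6.77, 8.19 and 5.96. These 3 members were named after their values were seen. That they stood open under both shRNAs in both lines that carry KMT2A-AFF1 follows from how they were picked. RCH is the only other line, so the fusion and the line cannot be told apart. Over the whole interval 1.97% of members had this pattern, against 1.44% of all regions.

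Members open in all 4 lists of 1 line and in none of the other 8 lists numbered 13 in SEM (2.84% of the members, against 0.957% of all regions), 6 in RS4;11 (1.31%, against 2.03%) and 1 in RCH (0.219%, against 0.889%). SEM had 6 in the histone and extended class I subregion, 2 in class I, 1 in class III and 4 in class II. With all 12 lists cut to the same length the counts were 6, 3 and 3, so the lead of SEM shrank. No share of all regions is given for that setting. The strongest of SEM were chr6:32753585-32753988 in class II, with folds of 11.2 and 10.5 with NT and 8.53 and 8.06 with sh2, and chr6:28973029-28973629 in the extended class I part, with 8.10 and 8.50 and 10.1 and 10.7. In class III it was chr6:31875112-31875611, with 7.61 and 6.90 and 9.56 and 9.20, and in class I chr6:30495801-30496040, with 5.75 and 4.55 and 4.49 and 4.21.

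The strongest member open in a single line belonged to RS4;11. At chr6:27924999-27925767 its folds were 14.5 and 15.0 with NT and 13.8 and 14.2 with sh2, at a mean percentile of 90.6, and no list of the other lines had a peak. The class III member open in RS4;11 alone, chr6:31695345-31695614, was weak, with 3.64, 5.58, 5.26 and 4.20. The 1 member open in RCH alone, chr6:30095540-30095962 in class I, had 9.93 and 9.23 with NT and 5.07 and 4.79 with sh2. That each of these sites was called under both shRNAs follows from how they were picked.

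Pairs of lines shared further members. RS4;11 and SEM were open at 9 members where RCH had no peak (1.97%, against 1.44% of all regions), SEM and RCH at 4 where RS4;11 had none (0.875%, against 0.355%), and RS4;11 and RCH at 1 where SEM had none (0.219%, against 0.426%). Of the 4 open in SEM and RCH alone 3 lay in the histone and extended class I subregion. They were chr6:26923903-26924976, with folds of 5.63 to 11.8 over the 8 lists, chr6:27280063-27280826 with 4.10 to 7.41, and chr6:27356141-27357125 with 3.55 to 10.4. They were named after their values were seen. That RS4;11 had no peak at any of the 3 under either shRNA follows from the pattern.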

How the data were processed

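ATAC-seq peak lists of 6 samples (NT and sh2 in each of RS4;11, SEM and RCH) were used, 2 lists per sample. Per the submitters' processing notes, reads were aligned with Bowtie2 and peaks called with MACS2 on hg19. For versions, settings and filters nothing is given in the sources used here. The fold of each peak, as deposited by the authors, was read as a fold enrichment ratio from its values and served only to describe and rank peaks within a list. Read depth is unknown.

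In all 718792 peaks on chromosomes 1 to 22 and X entered, and 140 on Y were left out. No peak lay on a haplotype contig. The lists were merged with an overlap of at least 1 bp, and a region was open in a list that had a peak in it. Members and lists were chosen with earlier results of these data known. Members named in the text were, per subregion, the widest, the longest gap and the 2 with the highest mean percentile among those open in all 12 lists; any NT-only or sh2-only in at least 2 lines; and, per line, the 2 highest-ranked NT-only and sh2-only members and the highest-ranked member of each subregion open in that line alone. Others are said to be chosen after their values were seen. Gene lists needed an hg19 annotation and were not used.

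Changes between NT and sh2 were described per line and tested across the 3 lines with an exact two-sided sign-flip test. The pairing comes from the cell line in the sample titles. Over the 457 members, deviations of NT and sh2 from their means correlated at 0.577, 0.568 and 0.491 within RS4;11, SEM and RCH and at -0.35 to -0.196 between lines. Deviations from a mean over the 3 lines cancel out across them. The negative values thus go with the positive ones by construction and are no further support for the pairing. Binomial intervals are Clopper-Pearson at 95% and cover counting error only. Alternatives were lists of equal length, 50% coverage of a region, folds above the pooled median, no peak of the other shRNA within 1 kb, chromosome 6 as the reference and each library left out. The steps ran in bedtools 2.31.1 and Python 3.11.15 with scipy 1.17.1, pandas 2.3.3, numpy 2.4.6 and matplotlib 3.10.9. Only the calling of NT-only and sh2-only regions was run on simulated peaks. These were placed at the merged regions themselves, so the run checked the code and no other step.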

Additional observations from a re-analysis of the deposited data

Results flagged for a closer look

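Some changes went in opposite directions in different lines, with every library on its side. The number of class I peaks changed by -3.03% with sh2 in SEM and by 20% in RCH. The SEM libraries lay close together, with 81 and 84 peaks with NT and 80 and 80 with sh2. The interval's share of all peaks in a list changed by 0.109 percentage points in RS4;11, -0.109 in SEM and 0.154 in RCH, so that SEM differed in sign from both other lines. The number of peaks in the interval fell slightly in every line. All other peaks changed by -21.5%, 16.2% and -24.6%. With lists of equal length within a line they changed by -0.0922%, 0.106% and -0.135%, and the interval by 20.1%, -15.6% and 24.9%. The part of list length in the shares was not tested. The difference was not tested in any of these cases, since each line has 1 sample per shRNA.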

How the results depend on the processing

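Counts of NT-only and sh2-only members depended on how peaks were chosen, and the cause was not tested. With lists of equal length the NT-only and sh2-only counts were 3 and 17 in RS4;11, 21 and 0 in SEM and 6 and 30 in RCH, with 0 and 15 in RCH class I and 4 and 8 in its histone and extended class I subregion. With peaks above the median of pooled folds, RS4;11 had 4 and 9, SEM had 11 sh2-only, RCH had 6 sh2-only, its class I 3 and 4 and its histone and extended class I subregion 0 sh2-only. With 50% coverage, RS4;11 had 12 sh2-only (3.53%, against 1.06% of all regions) and RCH 17 sh2-only (5.84%, against 2.63%). RCH class I then had 2 NT-only (2.53%, against 12.4%). Where no peak of the other shRNA was allowed within 1 kb, RS4;11 had 4 and 2 and SEM 5 NT-only. For this rule no share of all regions is given. Members open in all 12 lists numbered 63 above the pooled median and 81 at 50% coverage. By subregion from telomere to centromere these were 21, 17, 14 and 11, and 28, 21, 17 and 15, and class II had 16 with all 12 lists cut to the same length. Members open in 1 line alone were 3, 4 and 0 in RS4;11, SEM and RCH above the pooled median, and 3, 6 and 3 with 12 lists of the same length. No share of all regions is given for these counts, so nothing is read from them. Leaving out each library in turn gave 13 to 28 NT-only and 8 to 20 sh2-only in RS4;11, 14 to 26 and 9 to 13 in SEM and 18 to 35 and 19 to 24 in RCH. The shares for these omissions are given above beside those of all regions. RCH class I then had 1 to 5 and 11 to 14, and its histone and extended class I subregion 13 to 24 and 3 to 4. Without RCH sh2 library 2, 3 members were open in RCH alone (1 to 3 over the omissions). The mean log2 ratio of the interval reversed with lists of equal length, at 0.11. Without the pairing of lines (no replicate block, exact permutation test of 3 against 3 samples), the mean difference from other peaks stayed at 0.15 (p = 0.5), and the interval alone was at -0.03 (p = 0.7). All alternatives for the RCH subregions and for the ratio of the interval alone were chosen after seeing the data. The depth behind a peak is unknown, so a missing peak does not show closed chromatin.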
